A study of Mus musculus with 6 samples.

Results

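The 36 genes described here encode the enzymes of glycolysis, the regulators of its flux, the oxygen sensor and the targets of the hypoxia response, taken as a fixed list of symbols out of 37187 gene IDs in the count table. They were followed in regulatory T cells (Tregs) of mice bearing B16.F10, a transplantable mouse melanoma line of C57BL/6 origin. The groups were 3 libraries from Il33-/- mice on a C57BL6 background (KO, replicates 4 to 6) and 3 libraries from C57BL6 mice (WT, replicates 1 to 3). All mice shared the tumour, given under the skin as 300000 cells, and the tissue, the lymph nodes draining it at day 14. Cells were sorted as CD4+CD25+GITR+, where CD25 is the product of Il2ra and GITR that of Tnfrsf18, and RNA was sequenced in bulk. The sources used here give no age or sex, no deleted exons of the Il33 allele and no statement on pooling of animals, so p-values measure only the spread between these libraries, which may be technical.

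Glycolysis splits glucose into pyruvate in the cytosol, and lactate dehydrogenase turns pyruvate into lactate, which leaves the cell through monocarboxylate transporters. Hypoxia-inducible factor (HIF) joins an oxygen-labile alpha subunit, such as the product of Hif1a, to a stable partner. Prolyl hydroxylases (Egln genes) mark the alpha subunit when oxygen is present, the product of Vhl sends it for degradation, and when oxygen is short HIF raises glycolytic enzymes together with targets such as Vegfa. In Tregs, Foxp3 and low mTOR activity are known to hold glycolysis down, while migration and strong activation draw on it.

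Among these genes, 1 low-abundance angiogenic target passed the test, and most of the enzymes were almost level. That target, Vegfa, was 3.41-fold higher in KO Tregs, and its call was lost in 3 of 17 alternative fits. By contrast, 0 of 17 glycolytic enzymes passed the test in either direction, though Hk2, at 1.39-fold, was called in 3 of the alternative fits. Counts were compared with the quasi-likelihood test of edgeR, p-values were adjusted by Benjamini-Hochberg over 13626 genes, and a gene was called at an adjusted p under 0.05. Of the 35 members with enough reads to be tested, 1 rose and 0 fell, which is 2.86% of the members against 6.50% of all genes tested (3.68% higher and 2.83% lower in KO). The remaining member, P4ha2, had 10, 13 and 15 reads in KO libraries and 7, 6 and 6 reads in WT libraries and was too low to test. At an unadjusted p under 0.05, edgeR counted 7 of the 35 members, where 21.8% of all genes tested passed. The median log2 fold change over the tested members was 0.02, against 0 over all genes tested, and 30 of the 35 lay within 0.25 of 0 on the log2 scale.

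**Figure D1:**
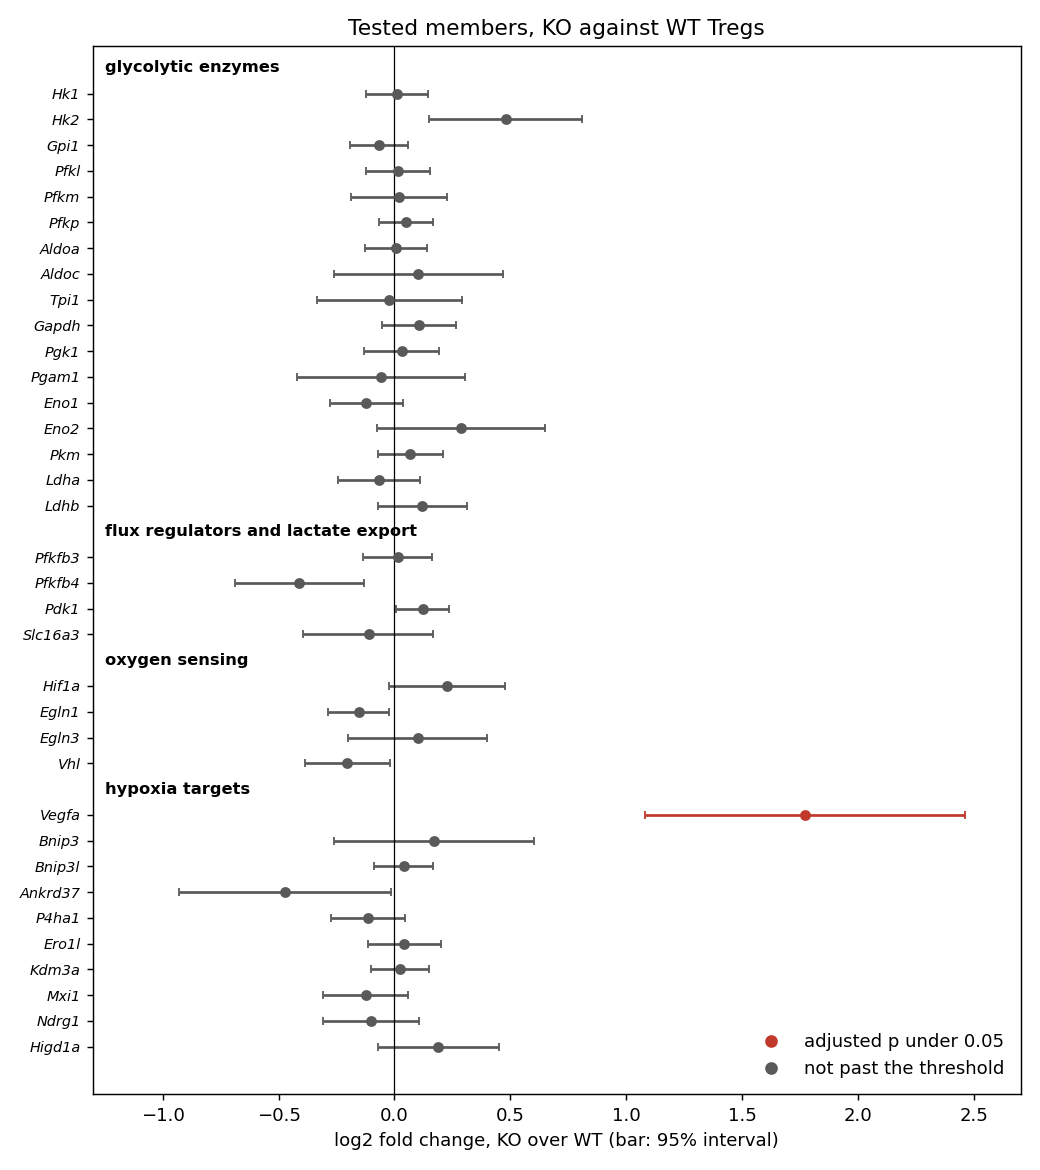
Log2 fold change of each tested member, KO over WT, with its 95% interval, arranged by role. Vegfa, in red, is the one gene called and lies at 1.77, while 30 of 35 genes lie within 0.25 of 0.

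The libraries were of like depth, from 18071928 to 21165063 gene counts, so 3 reads amounted to between 0.142 and 0.166 CPM (counts scaled to the same library total). Il33 itself had 3, 8 and 2 reads in KO libraries and 7, 0 and 9 reads in WT libraries, too few to check the genotype labels. Defining genes of the sort were present in all libraries: Foxp3 lay between 789.7 and 856.9 CPM in KO and between 719.2 and 802.9 CPM in WT. None of Cd4, Il2ra, Tnfrsf18 and Foxp3 was called. Of the 10 listed Treg and sort genes 1 rose, Ctla4. Of 19 general T lineage genes 4 rose, Cd28, Bcl11b, Gata3 and Skap1, and all these were named after their values were seen. Over all genes tested, 3.68% were called higher in KO. In the 17 alternatives, the call was lost in 3 for Ctla4, 6 for Cd28, 6 for Bcl11b, 9 for Gata3 and 10 for Skap1. The Treg and sort genes summed to 5865, 5713 and 5762 CPM in KO and 4807, 5507 and 4939 CPM in WT. The T lineage genes summed to 11190, 11000 and 11300 CPM in KO and 10390, 10860 and 10560 CPM in WT. For both lists every KO sum was above every WT sum. Summed B cell markers were lower in every KO library than in any WT library. All 19 genes had a negative log2 fold change, with a median of -1.91. For 16 of them every KO library was below every WT library, as for 12.6% of all genes tested. By the test 1 of the 19 was called (Vpreb3, lower in KO), and that call was lost in 11 of 17 alternatives. The 19 genes summed to 898.7, 1127 and 735.3 CPM in KO libraries and to 3973, 1807 and 3081 CPM in WT libraries, with none of the 19 at 0. Their part in the results on the 36 genes was not tested beyond the values given with each result. In bulk RNA, fewer cells of a type and less RNA per cell cannot be told apart. Immediate early genes, the fast responders to receptor signals, also moved, with 21 of 31 listed genes higher in KO. The share over all genes tested was 3.68%. Depending on the gene, the call was lost in 0 to 11 of the 17 alternatives. The listed immediate early genes summed to 13720 to 14960 CPM in KO and 8132 to 9669 CPM in WT. Their part in the values of the 36 genes was not tested.

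Vegfa encodes a secreted growth factor that drives blood vessel growth and vessel leakiness, and it is a textbook HIF target. It has 2 entries in the RefSeq promoter table for GRCm38.p6, and the 250 bases before its outer start are shown because it is the gene called. They lie at chr17:46032378-46032627 on the minus strand. They were searched for the core of the HIF motif, ACGTG or GCGTG, on both strands, and the sequence in lower case has no match to either.
Vegfa: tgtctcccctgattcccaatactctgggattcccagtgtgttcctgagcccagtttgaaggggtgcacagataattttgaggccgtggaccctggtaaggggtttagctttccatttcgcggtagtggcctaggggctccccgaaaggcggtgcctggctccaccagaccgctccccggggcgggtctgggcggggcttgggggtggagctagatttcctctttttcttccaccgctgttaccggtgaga

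A missing match says only that these letters are not in this window. The other entry, before a start inside the gene (chr17:46025164-46025413, minus strand), holds 2 cores, 218 and 211 bases before that start. Across the members, 34 had entries in that table, 52 promoters in all. The core was in 39 of the 52 (75.0%), against 38.6% of all 32851 promoters of the same length. Entries of the same gene can overlap, as for Eno1, Aldoa and Pfkm, so the same core can be counted more than once. By gene, 30 of the 34 had a core in at least 1 entry, a share not computed for all genes. By role, the core was in 75.0% of 28 entries for the enzymes and 83.3% of 6 for the flux regulators. It was in 75.0% of 4 entries for oxygen sensing and 71.4% of 14 for the hypoxia targets. The GC box GGGCGG, a mark of GC-rich promoters searched on both strands, was likewise in 63.5% of member entries and 32.7% of all promoters, and base composition was not taken into account. The AP-1 motif TGANTCA was in 3.85% of member entries and 6.75% of all promoters. The letters CACGTG, which hold the core and occur in the Ldha window below, were in 9.62% of member entries and 6.02% of all promoters. Gpi1, Tpi1, Eno2 and Vhl had no core in the bases searched. Windows around the core are shown here for some genes that have it and whose levels are described next. They are read 5′ to 3′ on the gene's strand. Capitals mark the core, which reads CACGT where it lies on the opposite strand.
Hk2, chr6:82774492-82774516, minus strand: tgagcacatcCACGTcactgtccgg
Ldha, chr7:46845747-46845771, plus strand: cccagcctacACGTGggttcccgca
Pgk1, chrX:106186940-106186964, plus strand: gtcgtgcaggACGTGacaaatggaa
Pfkfb4, chr9:108991775-108991799, plus strand: gacggatgggGCGTGcttagtccaa
Pdk1, chr2:71873136-71873160, plus strand: gcctacatggGCGTGtctttaacca

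The enzymes of glycolysis were mostly abundant and nearly level between the genotypes. Levels of different genes are compared here in FPKM (the deposited fragment counts scaled for depth and gene length). Pkm, the enzyme that makes pyruvate, led all 36 genes at a mean of 253.3 FPKM in KO and 242.1 FPKM in WT. Ldha, which makes lactate, came next at 157.1 FPKM in KO and 164.9 FPKM in WT. Gapdh, the dehydrogenase in the middle of the pathway, followed at 115.3 FPKM in KO and 107.3 FPKM in WT, and Aldoa, which splits the 6-carbon sugar, at 111.2 FPKM in KO and 110.9 FPKM in WT. Gapdh and Aldoa exchanged places between the genotypes, and their library values overlapped, so their order does not go beyond the spread. The scarcest enzymes were Hk2, Eno2 and Aldoc, from 1.57 to 3.20 FPKM as group means. Summed over the 17 enzymes, libraries held 822, 936.2 and 960.2 FPKM in KO and 910.7, 929.4 and 856.8 FPKM in WT. The ranges overlapped, and both the lowest and the highest of the 6 sums came from KO.

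**Figure D2:**
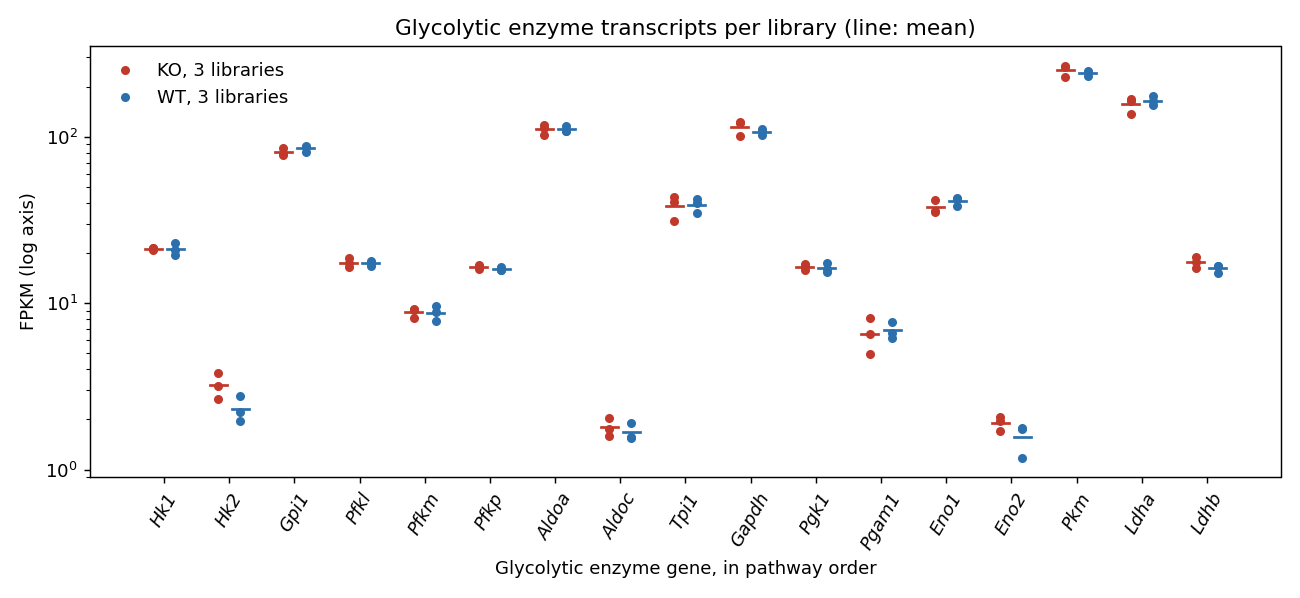
FPKM of the 17 glycolytic enzymes on a log axis, KO left of WT within each gene, with a point for each library and a line at the mean. Pkm is highest, at 253.3 FPKM in KO and 242.1 FPKM in WT, and for all 17 genes the points of the genotypes overlap.

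Fold changes of the enzymes were mostly small and of both signs. Log2 fold changes ran from -0.12 for Eno1 to 0.48 for Hk2, with a median of 0.02, and 12 were positive and 5 negative. Pkm measured 593.9, 699.4 and 694.0 CPM in KO and 640.5, 647.8 and 606.4 CPM in WT. The WT values lay inside the KO range, and the 95% interval of the fold change was 0.951 to 1.16. Ldha measured 412.1, 493.4 and 509.0 CPM in KO and 488.6, 528.6 and 463.1 CPM in WT, with an interval of 0.845 to 1.08. Apart from Hk2, Eno2 and Aldoc, intervals for the enzymes stayed between 0.747-fold and 1.24-fold, the lower bound being that of Pgam1 and the upper that of Ldhb. For Pfkl, Pfkm and Pfkp, which catalyse the committed step, log2 fold changes were 0.01, 0.02 and 0.05. Gpi1, the isomerase before that step, was at -0.07, Tpi1, which interconverts the triose phosphates, at -0.02, Pgk1, the first ATP-forming kinase, at 0.03 and Pgam1, the mutase, at -0.06.

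Hk2, the inducible hexokinase that traps glucose in the cell, had the largest change among the enzymes but was not called. It measured 19.02, 22.73 and 15.94 CPM in KO libraries and 11.77, 16.43 and 13.23 CPM in WT libraries. KO replicate 6 lay below WT replicate 2, so the groups overlapped. The log2 fold change was 0.48 (SE 0.15, adjusted p = 0.0891, edgeR). DESeq2 called it higher in KO (adjusted p = 0.0483), as did edgeR without WT replicate 2 (adjusted p = 0.0122) and edgeR with no filter on low counts (adjusted p = 0.00198). Without WT replicates 1 and 3, the libraries with the most B cell signal, its log2 fold change was 0.23 (adjusted p = 0.668, edgeR). That fit has WT replicate 2 as its lone WT library, the WT library with the most Hk2, and takes its spread from the KO libraries.

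Hk1, the widely expressed hexokinase, carried most of the hexokinase transcript. Hk2 made up 13.1%, 15.0% and 11.0% of the summed Hk1 and Hk2 FPKM in KO libraries and 8.59%, 10.6% and 10.1% in WT libraries. The KO shares were all above the WT shares, by 3.26 percentage points on average, and the exact permutation test, two-sided, gave p = 0.1, the smallest possible with 3 libraries against 3. Eno2, the neuronal enolase, showed the same order within the pair Eno1 and Eno2. Its shares were 5.24%, 4.61% and 4.70% in KO and 3.97%, 2.72% and 4.44% in WT, a difference of 1.14 points (exact permutation p = 0.1). Without WT replicate 2 that difference was 0.644 points. Eno3, the muscle enolase, is outside the 36 genes, and with it counted in the step the Eno2 difference was 0.484 points. Ldhb, the heart-type lactate dehydrogenase, had 12.1%, 8.98% and 9.53% in KO and 8.55%, 8.65% and 9.81% in WT, which overlapped. Its difference of 1.18 points was 0.251 points without KO replicate 4. The shares of Aldoc and of the 3 phosphofructokinase genes overlapped as well, with differences of 0.541 points or less in size, and up to 1.03 points on leaving out 1 library. These were 5 steps, each tested by the same exact permutation test, and none of them could fall under 0.05.

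**Figure D3:**
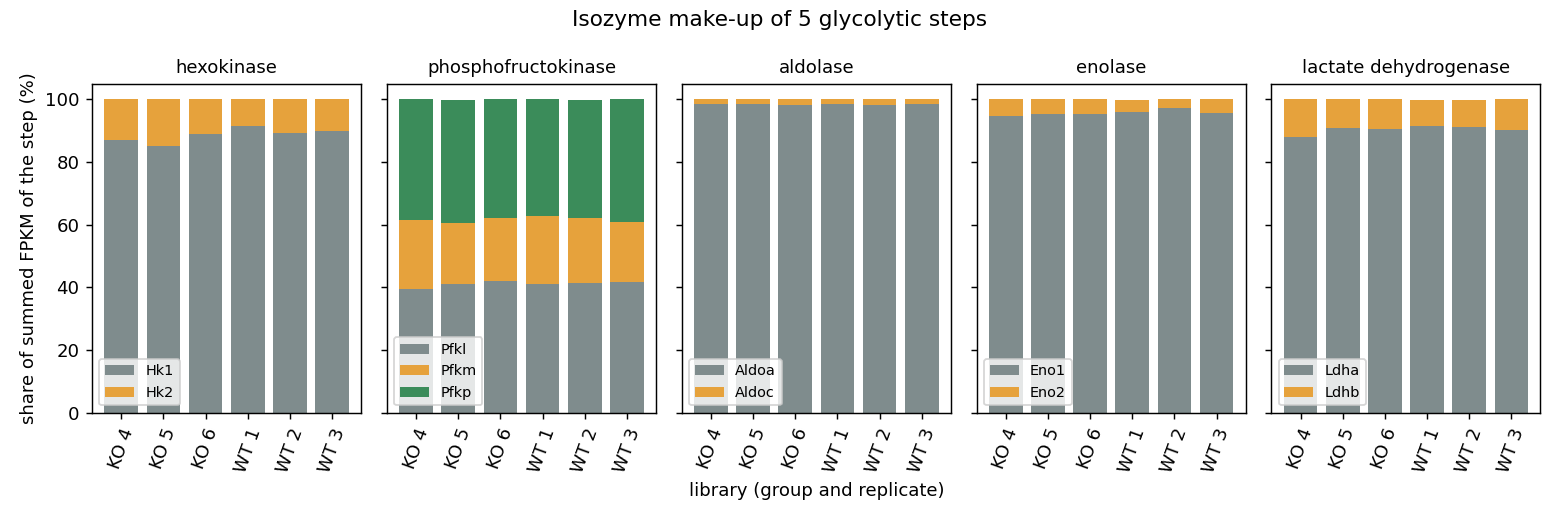
Share of each isozyme in the summed FPKM of its step, in percent, with a stacked bar for each library and the KO libraries left of the WT libraries. Among the genes plotted, Hk1, Aldoa, Eno1 and Ldha form most of their step in every library (Eno3 is not included), and the Hk2 part runs from 11.0% to 15.0% in KO and from 8.59% to 10.6% in WT.

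In both genotypes 1 library was lowest for most enzymes. KO replicate 4 was the lowest KO library for 12 of the 17 enzymes, and WT replicate 3 was the lowest WT library for 12 as well. The median log2 ratio to the WT mean was -0.08 in KO replicate 4, 0.04 in KO replicate 5 and 0.10 in KO replicate 6, against 0.02, 0.04 and -0.07 in WT replicates 1 to 3. Libraries of both genotypes thus lay on either side of the WT mean. The 22 listed cell cycle genes, of which 0 were called, were also lowest in KO replicate 4, with sums of 1706, 2516 and 2178 CPM in KO and 1886, 2165 and 2067 CPM in WT. Their part in the enzyme values was not tested.

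**Figure D4:**
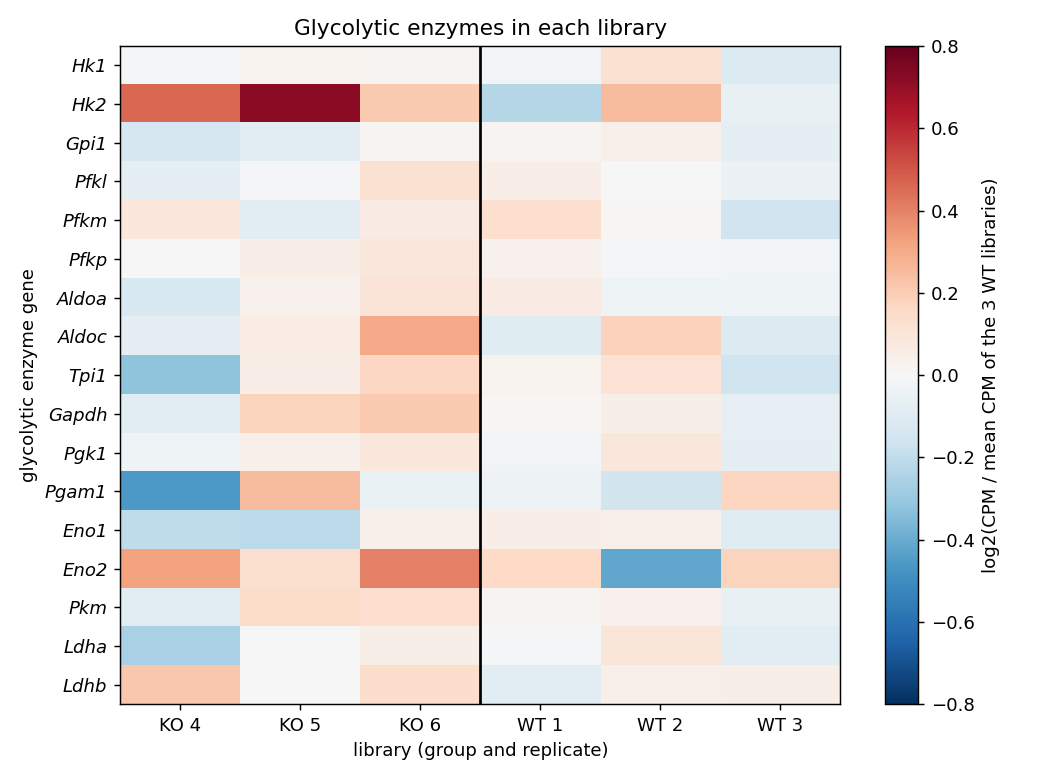
Log2 ratio of each enzyme's CPM to its mean over the WT libraries, in a colour scale with red above and blue below, KO libraries left of the black line and WT libraries right of it. KO replicate 4 is blue in most enzymes, with a median of -0.08, while KO replicate 6 is mostly red, with a median of 0.10.

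Regulators of flux and export gave 0 calls among 4 genes, although the groups of 2 of them did not overlap. Pfkfb4, which sets fructose 2,6-bisphosphate, the activator of phosphofructokinase, measured 8.15, 7.24 and 7.76 CPM in KO and 11.06, 9.46 and 10.24 CPM in WT. All KO values lay below all WT values, and the log2 fold change was -0.41 (SE 0.13, adjusted p = 0.081, edgeR). Its more abundant relative Pfkfb3 was level, with a log2 fold change of 0.01 and a 95% interval of 0.911-fold to 1.12-fold. Pdk1, the kinase that shuts pyruvate dehydrogenase and so keeps pyruvate out of mitochondria, measured 198.2, 186.7 and 196.3 CPM in KO and 176.2, 174.8 and 183.6 CPM in WT. Each KO value was above each WT value, but the log2 fold change was 0.12 (adjusted p = 0.208, edgeR). Slc16a3, the lactate exporter MCT4, overlapped between the groups, with 13.49 to 18.37 CPM in KO and 16.42 to 20.07 CPM in WT. In all, the groups of 6 of the 35 tested members did not overlap (17.1%), against 26.3% of all genes tested. KO was higher in 2 of these, Vegfa and Pdk1, and lower in 4, Pfkfb4, Egln1, Vhl and Mxi1, where 13.7% of all genes were non-overlapping with KO higher and 12.6% with KO lower.

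The oxygen sensing genes gave 0 calls among 4. Hif1a, the alpha subunit, was well expressed, ranking 6th of 36 genes in KO and 8th in WT by FPKM. It measured 250.2, 294.4 and 230.1 CPM in KO and 193.5, 238.7 and 230.5 CPM in WT. The groups overlapped, and the log2 fold change was 0.23 (SE 0.11, adjusted p = 0.28, edgeR). Egln1, the main prolyl hydroxylase, measured 76.21, 75.37 and 80.15 CPM in KO and 82.68, 91.66 and 83.62 CPM in WT. Vhl, the ubiquitin ligase subunit that binds the hydroxylated form, measured 23.54, 24.01 and 25.80 CPM in KO and 29.66, 26.57 and 28.17 CPM in WT. For both genes every KO library was below every WT library. The differences were small and not called, with log2 fold changes of -0.16 for Egln1 and -0.20 for Vhl (adjusted p = 0.162 and 0.186, edgeR). Egln3, a hydroxylase that is itself a HIF target, stood at 9.87, 12.01 and 11.09 CPM in KO and 8.97, 11.91 and 9.91 CPM in WT. Only transcripts were measured, and HIF is set mainly by protein stability.

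**Figure D5:**
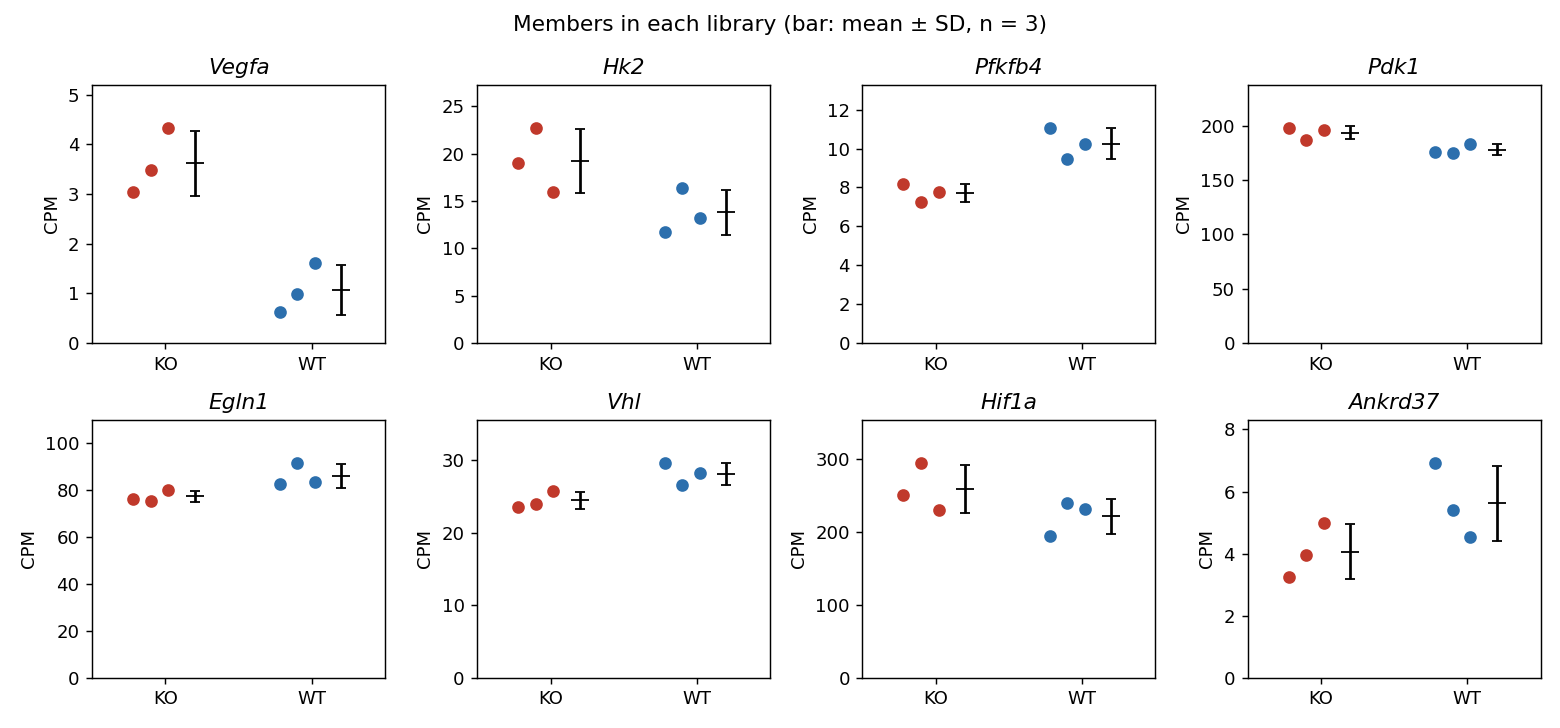
CPM of 8 members in each library, KO left of WT, with the mean and SD of 3 libraries beside the points and each axis starting at 0. Vegfa has 3.05 to 4.33 CPM in KO and 0.617 to 1.61 CPM in WT, and the groups also lie apart in Pfkfb4, Pdk1, Egln1 and Vhl.

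Vegfa was the exception among the hypoxia targets of the 36 genes and in that whole list. It had 64, 73 and 91 reads in KO libraries and 13, 19 and 29 reads in WT libraries, which is 3.05, 3.48 and 4.33 CPM in KO and 0.617, 0.988 and 1.61 CPM in WT. The lowest KO library was well above the highest WT library, and the groups averaged 3.62 ± 0.652 CPM in KO and 1.07 ± 0.499 CPM in WT (SD, n = 3 each). The log2 fold change was 1.77 (SE 0.32, adjusted p = 0.00617, edgeR), with a 95% interval of 2.12-fold to 5.50-fold. At a mean of 0.838 FPKM in KO and 0.248 FPKM in WT it was still the 35th of the 36 genes by level in both genotypes. The gene (ENSMUSG00000023951) lies on GRCm38 chromosome 17, from 46016993 to 46032369 on the minus strand, and no other annotated gene shares its exons. Without WT replicates 1 and 3, the WT libraries richest in B cell transcripts, the log2 fold change was 1.87 (adjusted p = 0.013, edgeR). That fit has 1 WT library and takes its spread from the KO libraries, and without WT replicate 1 alone the value was 1.48. Adding a B cell score to the edgeR model gave 1.43 and no call (adjusted p = 0.487). That score, the mean log2(CPM + 0.1) of the 19 markers, was 4.62, 4.98 and 4.28 in KO libraries and 6.87, 5.39 and 6.51 in WT libraries, so it was itself split by genotype. The Vegfa call was also lost with limma on log2(FPKM + 0.1), at an adjusted p of 0.0647, and on log2(normalized count + 1), at 0.085.

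Dendritic cells and macrophages, stromal cells and melanoma cells can also make Vegfa. The 17 dendritic and myeloid markers summed to 51.76, 76.37 and 60.07 CPM in KO and 71.43, 55.94 and 76.70 CPM in WT, with S100a9 at 0 in all libraries, 1 of the 12 tested genes higher (Cd68) and 1 lower (Siglech), both named after their values were seen. The 11 melanoma and stromal markers summed to 283.9, 279.1 and 289.9 CPM in KO and 249.6, 233.8 and 244.9 CPM in WT, with 2 of 4 tested genes higher in KO. These, named after their values were seen, were Pmel, a pigment granule protein, and Pecam1, an endothelial adhesion molecule also found on T cells, which alone gave 241.7 to 252.5 CPM in KO and 206.4 to 226.2 CPM in WT. The Pecam1 call was lost on leaving out any single library and in 12 of 17 alternatives, and the Pmel call in 9, among them the fits without WT replicate 1, KO replicate 5 or KO replicate 6. Of all genes tested, 3.68% were higher and 2.83% lower in KO. Dct, Tyr and Tyrp1, the pigment enzymes, were at 0 in all libraries. The part of such cells in the Vegfa value was not tested otherwise.

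No other tested hypoxia target among the members passed the threshold. Over the 10 tested targets the median log2 fold change was 0.03, and their summed level was 121.0, 120.4 and 124.2 FPKM in KO and 122.6, 126.5 and 117.6 FPKM in WT. Bnip3 and Bnip3l, which promote removal of mitochondria, had log2 fold changes of 0.17 and 0.04. P4ha1, a collagen prolyl hydroxylase, was at -0.11, Ero1l, an oxidase of the endoplasmic reticulum, at 0.04, and Kdm3a, a histone demethylase, at 0.03. Ndrg1, a stress-responsive gene, was at -0.10, Higd1a, a mitochondrial inner membrane protein, at 0.19, and Mxi1, an antagonist of Myc, at -0.13. None of these was called. Ankrd37, a small ankyrin-repeat protein, had the lowest fold change of all the members. It measured 3.24, 3.95 and 4.998 CPM in KO and 6.93, 5.41 and 4.54 CPM in WT. KO replicate 6 was above WT replicate 3, so the groups overlapped, and the log2 fold change was -0.47 (SE 0.21, adjusted p = 0.212, edgeR). Ankrd37 shares 22.7% of its exon bases with Lrp2bp and 3.70% with Ufsp2, so some of its reads could belong to a neighbour if strand was not used in counting. The same caution holds for other members, with smaller shares than that with Lrp2bp. Among them were Pfkp (5.58% with Pitrm1), Hif1a (5.6% with Gm15283), Gapdh (1.65% with Iffo1) and Pfkm (0.539% with Senp1).

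Neighbouring pathway genes, listed apart from the 36 with earlier results of these data known, give the surroundings. Over all genes tested, 6.50% were called, 3.68% higher and 2.83% lower in KO. Of 25 tested genes around glycolysis, 3 rose and 2 fell. Slc16a1, the monocarboxylate transporter MCT1, measured 47.95, 61.70 and 52.97 CPM in KO and 33.94, 38.47 and 38.07 CPM in WT (log2 fold change 0.56, adjusted p = 0.00391, edgeR). Slc2a3, the high-affinity glucose transporter GLUT3, measured 177.2, 168.5 and 172.3 CPM in KO and 144.3, 142.1 and 138.6 CPM in WT (0.29 on the log2 scale, adjusted p = 0.00761, edgeR). Slc2a1, the glucose transporter GLUT1, named after its values were seen, rose by 0.33 on the log2 scale (adjusted p = 0.0137, edgeR). The KO values of these 3 genes lay above every WT value. The call was lost without WT replicate 3 for Slc2a3 and Slc2a1, without KO replicate 6 for Slc2a1, and without WT replicates 1 and 3 for Slc16a1 and Slc2a3. Pgm2, a phosphopentomutase and phosphoglucomutase, measured 24.88, 24.11 and 23.37 CPM in KO and 31.99, 34.62 and 33.31 CPM in WT and fell by 0.47 on the log2 scale (adjusted p = 0.00429, edgeR). Slc2a6, a transporter of the same family as GLUT1, also named after its values were seen, had a log2 fold change of -0.85 (adjusted p = 0.0245, edgeR). Slc2a6 was not called without WT replicate 1 or without any one KO replicate. Slc16a1, Slc2a1 and Slc2a6 were not called by limma on log2(FPKM + 1), log2(FPKM + 0.1) or log2(normalized count + 1). Slc2a3 was called only on the first of these scales. Pgm2 had no fit on any of these scales. Its call was lost in 1 of 14 alternatives, edgeR with the B cell score in the model (adjusted p = 0.211).

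Genes that take pyruvate into mitochondria gave 0 calls among 12 tested, and those of the pentose phosphate pathway 0 among 8. The smallest p-values there belonged to Pdpr, a regulatory subunit of pyruvate dehydrogenase phosphatase, at a log2 fold change of -0.28 (adjusted p = 0.301, edgeR) and Pgd, 6-phosphogluconate dehydrogenase, at -0.11 (adjusted p = 0.337, edgeR). Pdp1, the catalytic subunit of that phosphatase, was at 0.15 and Pgls, the lactonase, at -0.14. Of the 19 tested growth regulators of glycolysis, Foxo1, a transcription factor of quiescence, was called higher by 0.18 (adjusted p = 0.0442, edgeR), a call lost on leaving out any single library. Of 16 other genes of the HIF machinery, Siah2, a ubiquitin ligase acting on the hydroxylases, rose by 0.54 (adjusted p = 0.0101, edgeR). Cited2, a competitor of HIF for its coactivator, rose by 0.28 (adjusted p = 0.0225, edgeR). Neither was called by limma on log2(FPKM + 1), log2(FPKM + 0.1) or log2(normalized count + 1). The call of Siah2 was lost without KO replicate 6, and that of Cited2 without WT replicate 1 or 3 or KO replicate 5 or 6, and both were lost without WT replicates 1 and 3.

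Of 31 further hypoxia targets tested, 5 rose and 0 fell, where 3.68% of all genes tested rose and 2.83% fell. The median over the list was 0.11 on the log2 scale, against 0 over all genes tested. Bhlhe40, a transcriptional repressor, measured 134.0, 118.9 and 111.9 CPM in KO and 37.50, 51.00 and 47.20 CPM in WT, a log2 difference of 1.43 (adjusted p = 0.000435, edgeR). Pnrc1, a nuclear receptor coactivator, measured 629.8, 608.8 and 626.6 CPM in KO and 336.7, 421.2 and 403.4 CPM in WT. Errfi1, a feedback inhibitor of the EGF receptor, measured 19.97, 24.77 and 21.13 CPM in KO and 11.91, 12.01 and 12.56 CPM in WT. The KO values of all 3 genes lay above every WT value, at adjusted p = 0.000296 for Pnrc1 and 0.00067 for Errfi1 (edgeR). These 3 genes also answer growth and receptor signals apart from oxygen. The other called genes of that list, named after their values were seen, were Wsb1, at 0.41 on the log2 scale, and Nrn1, at 0.48. Of the called genes named from the lists around the 36, Bhlhe40 alone was also called by edgeR with the B cell score in the model, and Wsb1 and Nrn1 were not called without WT replicates 1 and 3. Nrn1 was also not called without WT replicate 3, KO replicate 4 or KO replicate 6. Wsb1 and Nrn1 were not called by limma on log2(FPKM + 1), log2(FPKM + 0.1) or log2(normalized count + 1). Pnrc1 was not called on the last of these scales.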

How the data were processed

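Tregs from tumour-draining lymph nodes were profiled by bulk RNA-seq in 6 libraries, 3 KO and 3 WT, grouped by the genotype in the labels. The authors deposited raw gene counts, normalized counts, used here as a signal scaled by size factors, and FPKM. Per the submitters' processing notes the tools were bcl2fastq, STAR 2.4.2a and DESeq2 with GRCm38. The sources used here name no counting tool or strand setting. Among 9733 genes with over 50 counts and a matching symbol, 99.877% of deposited normalized counts equalled the raw count over one factor per library, within a relative 1e-06. GENCODE M21 gave symbols to 35412 of 37187 gene IDs, and IDs without one held 0.26% to 0.308% of counts.

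The 36 members and the other gene lists were chosen with earlier results of these data known, so lists are described by counts and medians and given no test. Raw counts were tested with edgeR 4.0.16 (R 4.3.3; filterByExpr, TMM factors, robust quasi-likelihood fit, two-sided, Benjamini-Hochberg adjustment over all tested genes, threshold 0.05). The filter needed about 10 counts in a library of median depth, 0.478 CPM, in 3 libraries. Folds follow as KO over WT, CPM uses library totals scaled by TMM factors, and intervals are at 95%. FPKM served to compare genes and isozymes. Isozyme shares were compared with an exact two-sided permutation test. DESeq2 1.42.0, limma 3.58.1 (also on log2 values with a pseudocount of 1 or 0.1), other scaling factors, other filters, a B cell score as covariate and leave-outs were alternatives. All members were named, with the genes of the sort and, from each other pathway list, up to 3 called genes or, with none called, 2 genes with the smallest p. Genes named beyond this rule are said to have been chosen after their values were seen; cell type, immediate early and cell cycle lists are given as counts and sums. The script was tested on simulated data. Replicates differed by more than sampling noise (chi-square over degrees of freedom 5.16 to 14.7). Libraries held 18071928 to 21165063 counts.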

Additional observations from a re-analysis of the deposited data

How the results depend on the processing

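Over 17 alternatives, 595 values of single members were recomputed: 550 kept their direction and their side of the threshold, 3 lost the call, 4 gained one, 0 reversed a call and 38 changed sign without being called either way. The 3 losses were all of Vegfa, and the 4 gains were 3 of Hk2 and 1 of Hif1a, the last with no filter on low counts (adjusted p = 0.00679, edgeR). The count of members higher in KO, 1 in the report, was 2 with DESeq2, 3 with no filter, 0 with limma on log2(FPKM + 0.1), 0 on log2(normalized count + 1) and 0 with the B cell score as covariate. Leaving out single libraries gave 1 to 2, with Hk2 added without WT replicate 2. No alternative called a member lower. Over single left-out libraries the Vegfa log2 fold change ran from 1.48 (WT replicate 1) to 2.17 (WT replicate 3), with an adjusted p of at most 0.045 (edgeR, without KO replicate 6). In the fits that lost its call it was 1.43 with the B cell score, 1.47 on log2(FPKM + 0.1) and 1.79 on log2(normalized count + 1), at adjusted p = 0.487, 0.0647 and 0.085 (edgeR for the score, limma for the others), and it was 0.56 by limma on log2(FPKM + 1), where the pseudocount exceeds its level.

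The count over all genes, 886, depended more on the setting: 1645 with no filter, 284 on log2(FPKM + 1), 162 on log2(FPKM + 0.1), 119 on log2(normalized count + 1), 47 with the B cell score and 282 without WT replicates 1 and 3. Leaving out single libraries gave 367 (without WT replicate 3) to 1364 (without WT replicate 2), and 460 when WT replicate 1 was left out, 419 for KO replicate 5 and 408 for KO replicate 6. The cause was not tested. A fit with fewer libraries or the covariate has fewer residual degrees of freedom, whose part was not tested either. Over single left-out libraries, the isozyme difference ran from 0.644 to 1.51 points for Eno2, from 0.0113 to 0.212 points for Aldoc, from 0.251 to 1.79 points for Ldhb, from 2.30 to 4.27 points for Hk2, from -1.03 to 0.222 points for Pfkl, from -0.835 to 0.518 points for Pfkm and from 0.0895 to 1.03 points for Pfkp. With Eno3 in the step, chosen after seeing the data, the Eno2 difference was 0.484 points. Upper-quartile factors moved the median of all genes by 0.02 (log2).

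No paired analysis was possible because WT libraries are numbered 1 to 3 and KO libraries 4 to 6, so the groups share no number. Depth limits Vegfa, with 228 reads over the KO libraries and 61 over the WT libraries, and P4ha2.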

Other observations

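Muscle-type enolase, Eno3, was a sizeable part of the enolase transcript in these Tregs. It is known mainly from striated muscle, and it was singled out after its values were seen. Its level was 33.95, 24.11 and 29.71 FPKM in KO libraries and 27.81, 24.57 and 25.20 FPKM in WT libraries, and no other annotated gene shares its exons. Eno1, the enolase of most tissues, averaged 37.65 FPKM in KO and 41.04 FPKM in WT, and Eno2, the neuronal form, 1.92 FPKM in KO and 1.57 FPKM in WT. The KO and WT values of Eno3 overlapped, and its log2 fold change was 0.18 (adjusted p = 0.416, edgeR). In the sum of Eno1, Eno2 and Eno3, Eno3 held 47.5%, 39.3% and 40.4% in KO libraries and 38.5%, 36.1% and 38.6% in WT libraries, which did not overlap (exact permutation p = 0.1, two-sided, the smallest possible with 3 against 3). Eno1 held 49.8% to 57.9% in KO and 58.6% to 62.2% in WT. Protein was not measured.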
